A study of Mus musculus with 3 samples.

Results

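Inflammatory cytokine genes, the inflammasome sensor gene Nlrp3 and the neurotrophin gene Bdnf were examined in single microglia of the mouse lumbar spinal cord. The 8 genes, Il1a, Il1b, Tnf, Il6, Il10, Il18, Nlrp3 and Bdnf, were taken by symbol from the 27998 genes of the count table, and all 8 were found there. IL-1α, IL-1β and TNF are early inflammatory cytokines that microglia release, and they act on receptors of glia and neurons. IL-1β and IL-18 are made as inactive precursors, which caspase-1 cleaves once NLRP3 and the adaptor ASC have assembled an inflammasome. IL-6 is a cytokine that signals through gp130 and STAT3, IL-10 dampens inflammatory gene expression, and BDNF is a neurotrophin that binds TrkB and has been studied as a microglial mediator of pain after nerve injury.

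YFP (+) cells were sorted from lumbar cords of adult C57BL/6 mice heterozygous for Cx3cr1-creER-yfp, an allele that places CreER and YFP under the Cx3cr1 promoter. The animals were naive, or were taken 24 h or 48 h after sciatic nerve transection and ligation, and every group carried the same allele. The methods place all experiments after tamoxifen injections given for recombination, and do not name these animals separately. The methods state that cords of 3 animals were pooled per group and that sorted cells were held in serum-free medium with recombinant TGF-β2, IL34 and cholesterol, so each time point is 1 library without a replicate and no test between libraries was made. Cells of the 3 libraries are told apart by the last digit of their barcodes, and nothing in the labels or the text says which digit belongs to which group, so the libraries are called library 1, 2 and 3 throughout, and no value is given to a time point.

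Library 1 held 609 cells and 1343055 UMIs (unique molecular identifiers, 1 for each captured transcript), library 2 held 3591 cells and 24097543 UMIs, and library 3 held 3322 cells and 19769170 UMIs. The median cell had 2218 UMIs in library 1, 5952 in library 2 and 5742 in library 3. Because a deeper cell shows more genes, every cell was thinned at random to 2000 UMIs before shares of cells were compared, which left 408, 3569 and 3284 cells. The microglial gene P2ry12 was found in 98.1% to 99.0% of the thinned cells of each library. Of the defining genes of other cell types, Ly6g of neutrophils, Cd163 and Lyve1 of perivascular macrophages and Cd3e of T cells had 0 UMIs, while other genes of the same lists were found at low levels, among them S100a8 of neutrophils (0, 45 and 51 UMIs in libraries 1, 2 and 3), Pf4 of perivascular macrophages (1, 27 and 15), Ccr2 of monocytes (3, 12 and 14) and Gzma of T and NK cells (0, 225 and 0). These counts are not scaled to the UMIs of each library, of which library 1 had the fewest. The libraries share few barcode sequences, 24 found in 2 libraries and 1 found in 3. In library 3 the 20 immediate early genes, which are transcribed within minutes of many stimuli, took a mean of 57.9 of the 2000 UMIs of a cell, against 4.71 in library 1 and 6.11 in library 2. In library 2 the 15 proliferation genes summed to 1060 CPM (UMIs per 1000000 UMIs of the library), against 115 in library 1 and 183 in library 3.

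The promoters of the 5 members with 1 listed promoter are shown first, since their sequences differ in the elements that place and regulate transcription. Each is the 250 bases before the RefSeq start on GRCm38.p6, 5′ to 3′ on the strand of the gene, with matches to the searched motifs in capitals. Tnf (chr17:35202008-35202257, minus strand) and the neighbouring Il1a (chr2:129309973-129310222, minus strand) and Il1b (chr2:129371140-129371389, minus strand) are shown with Il6 (chr5:30012864-30013113, plus strand) and Il18 (chr9:50554450-50554699, plus strand).
Tnf: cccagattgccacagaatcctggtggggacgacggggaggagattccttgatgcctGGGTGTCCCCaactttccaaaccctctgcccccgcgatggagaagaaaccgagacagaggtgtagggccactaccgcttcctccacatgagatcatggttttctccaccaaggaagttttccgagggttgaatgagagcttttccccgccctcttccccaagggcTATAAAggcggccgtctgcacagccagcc
Il1a: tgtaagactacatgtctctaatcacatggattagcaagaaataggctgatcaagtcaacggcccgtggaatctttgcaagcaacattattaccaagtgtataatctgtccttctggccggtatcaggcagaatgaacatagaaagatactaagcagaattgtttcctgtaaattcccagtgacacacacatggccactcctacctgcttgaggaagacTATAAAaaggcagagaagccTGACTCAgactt
Il1b: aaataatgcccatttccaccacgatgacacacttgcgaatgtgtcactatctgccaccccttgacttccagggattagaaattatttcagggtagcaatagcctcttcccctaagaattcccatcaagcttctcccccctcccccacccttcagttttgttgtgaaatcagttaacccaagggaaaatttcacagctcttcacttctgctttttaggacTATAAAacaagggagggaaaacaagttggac
Il6: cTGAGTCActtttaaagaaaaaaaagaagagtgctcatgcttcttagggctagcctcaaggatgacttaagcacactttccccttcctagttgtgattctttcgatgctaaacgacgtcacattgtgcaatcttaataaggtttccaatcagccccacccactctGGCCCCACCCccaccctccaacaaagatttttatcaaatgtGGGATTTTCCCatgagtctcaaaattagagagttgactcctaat
Il18: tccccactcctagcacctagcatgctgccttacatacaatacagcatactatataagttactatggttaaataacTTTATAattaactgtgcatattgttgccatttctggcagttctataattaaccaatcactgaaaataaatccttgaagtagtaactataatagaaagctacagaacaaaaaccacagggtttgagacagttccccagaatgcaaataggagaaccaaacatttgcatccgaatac

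A TATA box (searched as TATAAA on both strands), the element that positions RNA polymerase II, lay on the gene's own strand in Tnf (29 to 24 bases before the start), Il1a (32 to 27) and Il1b (31 to 26). The same letters on the gene's strand between 45 and 20 bases before the start were present in 2.05% of all 32851 promoters of the table, a window chosen after the matches were seen, and on either strand anywhere in the 250 bases in 12.4%. Il18 held the motif only on the other strand and far from the start, at 175 to 170 bases, and Il6 held none. A loosely defined NF-κB site (GGGNNNNNCC, both strands) was present in Tnf at 194 to 185 bases, and in Il6 at 85 to 76 bases and at 44 to 35 bases, the latter overlapping a match on the other strand at 43 to 34. This loose motif was present in 45.8% of all promoters. The AP-1 motif TGANTCA was found in Il1a at 12 to 6 bases and in Il6 at 249 to 243 bases, against 6.75% of all promoters. Bdnf held it in its second listed promoter, at 152 to 146 bases, and the NF-κB motif was also in 2 of the Bdnf promoters and in 1 of Nlrp3. The CRE motif TGACGTCA, present in 1.55% of all promoters, was in none of the promoters of the members. A promoter was given for 7 of the 8 members, with 7 alternative promoters for Bdnf and 2 for Nlrp3.

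By position, Il1a (chromosome 2, 129299610 to 129309972) and Il1b (chromosome 2, 129364570 to 129371139) lie on the minus strand, 54597 bases apart, on GRCm38 with GENCODE M21. Tnf spans 35199381 to 35202007 on the minus strand of chromosome 17. Il6 (chromosome 5, 30013114 to 30019981), Il10 (chromosome 1, 131019845 to 131024974), Il18 (chromosome 9, 50554827 to 50581840), Nlrp3 (chromosome 11, 59541568 to 59566956) and Bdnf (chromosome 2, 109674700 to 109727007) are on the plus strand. Genes on the opposite strand overlap 4 of the members. Il1bos, antisense to Il1b, had 0, 4 and 46 UMIs in libraries 1, 2 and 3, and Bco2, antisense to Il18, had 49, 598 and 560. Gm14023, antisense to Il1a, and Gm45346, antisense to Bdnf, are not among the genes of the count table. Whether the counting used strand is not given in the sources used here, so Il1a, Il1b and Il18 cannot be fully separated from these partners.

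Tnf was the member that differed most between the libraries, and it was highest in library 3. Its 16 UMIs in library 1, 899 in library 2 and 3201 in library 3 corresponded to 11.9, 37.3 and 162 CPM (not divided by gene length, since a transcript is counted once, at its end). At equal depth, a Tnf UMI was found in 2.70% of cells of library 1 (exact 95% interval 1.35 to 4.77), 6.75% of library 2 (5.95 to 7.63) and 25.1% of library 3 (23.6 to 26.6). The 3 intervals do not overlap, and the order was library 1, library 2, library 3. As a ratio of CPM, Tnf was 4.34-fold higher in library 3 than in library 2 (95% interval 4.03 to 4.68) and 13.6-fold higher than in library 1 (8.36 to 23.8), while library 2 was 3.13-fold above library 1 (1.92 to 5.50). All intervals here reflect counting error alone, and variation between animals or preparations is not in them. Without thinning the shares were 2.46%, 19.9% and 51.1%, which keeps the order and shows how far depth moves a share.

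Il1a, which encodes IL-1α, a cytokine active without caspase-1, was found in all 3 libraries and was again highest in library 3. Its level was 109 CPM in library 1, 102 in library 2 and 224 in library 3, from 147, 2447 and 4436 UMIs. At equal depth 21.1% of library 1 cells (17.2 to 25.4), 18.5% of library 2 cells (17.2 to 19.8) and 35.0% of library 3 cells (33.4 to 36.7) had Il1a. Libraries 1 and 2 overlap in both measures, and library 3 stands above both. Library 3 was 2.21-fold above library 2 (2.10 to 2.32) and 2.05-fold above library 1 (1.74 to 2.43). The latter lies at the 2-fold line, and its log2 ratio of 1.03 came to 0.98 when the CPM were taken from cells with at least 2000 UMIs.

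Il1b was found in few cells, with the same order of libraries as Tnf. It had 3 UMIs in library 1, 112 in library 2 and 370 in library 3, or 2.23, 4.65 and 18.7 CPM. At equal depth it was in 0.245% of library 1 cells (0.00621 to 1.36), 0.700% of library 2 cells (0.454 to 1.03) and 2.92% of library 3 cells (2.37 to 3.56). Libraries 1 and 2 cannot be told apart at this depth, and library 3 lies above both. The level in library 3 was 4.03-fold that of library 2 (3.25 to 5.02) and 8.38-fold that of library 1, where the count of 3 UMIs leaves an interval from 2.84 to 40.8.

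Il6 went the other way, with its highest level in library 1. It had 42, 205 and 242 UMIs in libraries 1, 2 and 3, which is 31.3, 8.51 and 12.2 CPM. At equal depth Il6 was in 5.64% of library 1 cells (3.61 to 8.34), 1.93% of library 2 cells (1.51 to 2.44) and 2.77% of library 3 cells (2.24 to 3.39). The interval of library 1 lies above the others. Il6 was 3.68-fold higher in library 1 than in library 2 (2.57 to 5.14) and 2.55-fold higher than in library 3 (1.80 to 3.56), and library 3 was 1.44-fold above library 2 (1.19 to 1.74). Without thinning, the shares of 6.57%, 5.21% and 6.86% would hide this order, because library 1 is the shallowest.

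Nlrp3 and Il18 differed less. Nlrp3 was at 41.0, 33.8 and 56.2 CPM in libraries 1, 2 and 3, and was found in 5.88% (3.80 to 8.63), 6.78% (5.98 to 7.66) and 10.6% (9.54 to 11.7) of cells. Library 3 was 1.66-fold above library 2 (1.52 to 1.82) and 1.37-fold above library 1 (1.05 to 1.84). Il18 was at 48.4, 40.8 and 40.0 CPM and in 10.5% (7.73 to 13.9), 7.68% (6.82 to 8.60) and 7.83% (6.93 to 8.80) of cells, and all of these intervals overlap. The ratio of Il18 between libraries 3 and 2 was 0.98 (0.893 to 1.08), so a difference past these bounds was not seen at this depth.

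Il10 and Bdnf were at or near the limit of detection. Il10 had 0 UMIs in library 1, 1 UMI in library 2 and 4 UMIs in library 3, each in a separate cell, and the ratio of library 3 to library 2, 4.88, had an interval from 0.482 to 240.1. Bdnf had 0 UMIs in all 7522 cells and 45209768 UMIs. A count of 0 allows up to 3 counts, which is a share of cells with a UMI of up to 0.493% in library 1, 0.0835% in library 2, 0.0903% in library 3 and 0.0399% over all cells, or a level of up to 0.0664 CPM over all UMIs. In library 1 the limit for Bdnf and for Il10 is 2.23 CPM, which is as high as the level of Il1b there. The growth factor and cytokine genes Ntf3, Lif and Il34 also had 0 UMIs in all 3 libraries. The share of cells with a UMI that free RNA alone would give was not measured, because the sort held no cell type that should lack the cytokines.

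**Figure D1:**
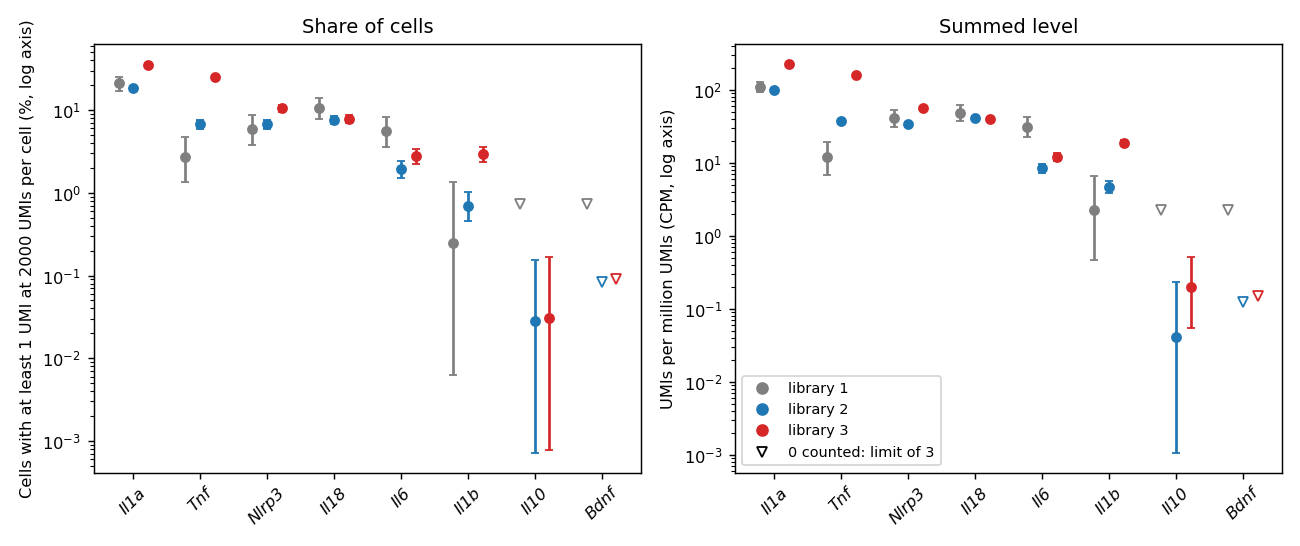
Share of cells with at least 1 UMI after thinning to 2000 UMIs per cell (left, percent) and summed level in CPM (right) of the 8 genes in library 1 (grey), library 2 (blue) and library 3 (red), both on log axes. Bars are exact 95% intervals for counting error, and open triangles mark the limit of 3 counts where 0 were found, as for Bdnf in all 3 libraries; Tnf at 25.1% and Il1a at 35.0% of cells in library 3 lie above their other libraries, and Il6 is highest in library 1.

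The ratios of the members were set against those of all genes with a mean of at least 10 CPM over the 3 libraries. A member was counted past 2-fold where the log2 ratio of CPM, with 1 CPM added to both sides, was at least 1 or at most -1. In library 3 against library 2, 3 of the 8 members (Il1a, Il1b and Tnf) were higher past 2-fold and 0 were lower, while 1.32% of the 8130 genes were higher and 1.92% lower. In library 3 against library 1 the same 3 members were higher and 1, Il6, was lower, beside 3.62% and 5.01% of all genes. In library 2 against library 1, Tnf was higher and Il6 was lower, beside 4.55% and 3.7%. Il1b, Il10 and Bdnf have a mean below 10 CPM, so 5 of the 8 members are among the 8130 genes. Tnf had a larger log2 ratio than 99.5% of the genes between libraries 3 and 2 and than 99.8% between libraries 3 and 1, and Il6 a larger one than only 0.221% of them between libraries 2 and 1. Il1a had a larger one than 98.9% between libraries 3 and 2, but lay in the middle between libraries 2 and 1, above 49.0%. The median log2 ratio of all 8130 genes was -0.02 between libraries 3 and 2 and -0.09 in both comparisons with library 1. The 3 comparisons share libraries and are not independent of each other.

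**Figure D2:**
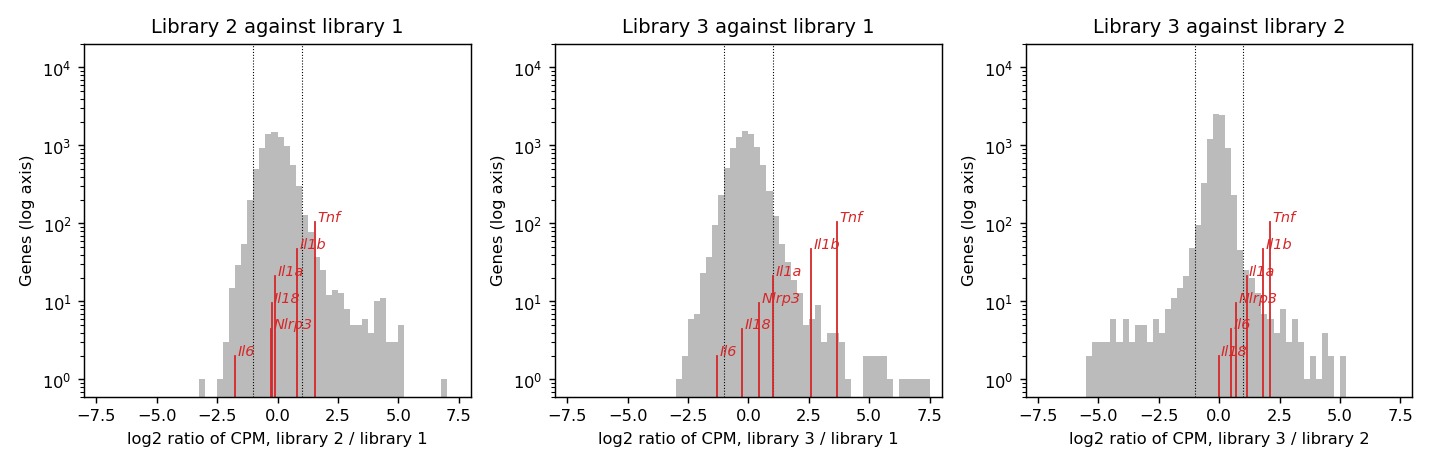
Histograms of the log2 ratio of CPM between each pair of libraries for the 8130 genes with a mean of at least 10 CPM (grey, number of genes on a log axis), with 6 members as red lines whose height has no meaning and dotted lines at 2-fold. Tnf lies at 2.09 and Il18 at -0.03 between libraries 3 and 2, and Il6 at -1.76 between libraries 2 and 1.

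Within a library, most cells that held a member held a single UMI of it. In library 3 at equal depth, Tnf had 0 UMIs in 2461 cells, 1 in 660, 2 in 124 and 3 or more in 39, with a highest count of 7. The variance of its counts was 1.31 times the mean (Fano factor, 1 where counts scatter at random), against 1.03 in library 2. Tnf counts in library 3 were thus more uneven among cells than those of Il1a, whose Fano factor was 1.06, although more cells held Il1a. For Il1b in library 3 the factor was 1.46, and the 1% of cells with most Il1b held 42.7% of its UMIs, with a highest count of 5 at equal depth and 13 before thinning. A rare gene reaches a high share even near random scatter: for Il6 in library 3, with a factor of 0.99, it was 37.0%. Il6, Il18 and Nlrp3 had factors of 0.98 to 1.03 in libraries 2 and 3, close to that of random scatter. The factor depends on the mean, which for Tnf was 0.0709 UMIs per cell in library 2 and 0.32 in library 3, and at 4000 UMIs per cell it was 1.25 and 1.54 for Tnf, 1.09 and 1.17 for Il1a, 1.29 and 1.38 for Il1b and 1.12 and 1.05 for Il6.

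At least 1 UMI of any of the 8 genes was found in 39.7% of cells of library 1 (34.9 to 44.6), 36.2% of library 2 (34.6 to 37.8) and 62.2% of library 3 (60.5 to 63.9). At least 2 different members were found in 5.64%, 5.77% and 18.8% of cells. Il1a, Il1b or Tnf was found in 23.5%, 24.4% and 52.8% of cells, and all 3 of them together in 0 cells of libraries 1 and 2 and in 13 cells of library 3 (0.396%). Having one member said little about having another. In library 3, Tnf was found in 24.9% of the 1150 cells with Il1a (22.4 to 27.5) and in 25.2% of the 2134 cells without it (23.3 to 27.1). Il1b was found in 3.04% of the 823 cells with Tnf (1.98 to 4.45) and in 2.89% of those without. Il1a was found in 39.6% of the 96 cells with Il1b (29.7 to 50.1), against 34.9% of those without, and Nlrp3 in 11.5% of the cells with Il1b (5.86 to 19.6), against 10.5% of those without. None of these pairs differed beyond its interval at this depth, but Il1a was in 29.2% of the cells with Il18 (23.7 to 35.2), against 35.5% of those without. At 4000 UMIs per cell Tnf was in 41.2% of cells with Il1a (38.9 to 43.7) and in 42.0% of those without. Il1b was then in 7.36% of cells with Tnf (5.95 to 8.97), against 5.46% of those without. Tnf was in 48.9% of cells with Il1b (41.4 to 56.4), against 41.1% of those without. In library 2 at 4000 UMIs, Tnf was in 14.4% of cells with Il1a (12.3 to 16.6), against 11.4% of those without. For Tnf with Il1b in library 3 and with Il1a in library 2, the share without lay below the interval of the share with. The intervals of the shares with and without still overlapped. Without thinning, Tnf was found in 54.1% of cells with Il1a and in 44.9% of cells without it in library 3, since a deeper cell shows more of every gene.

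**Figure D3:**
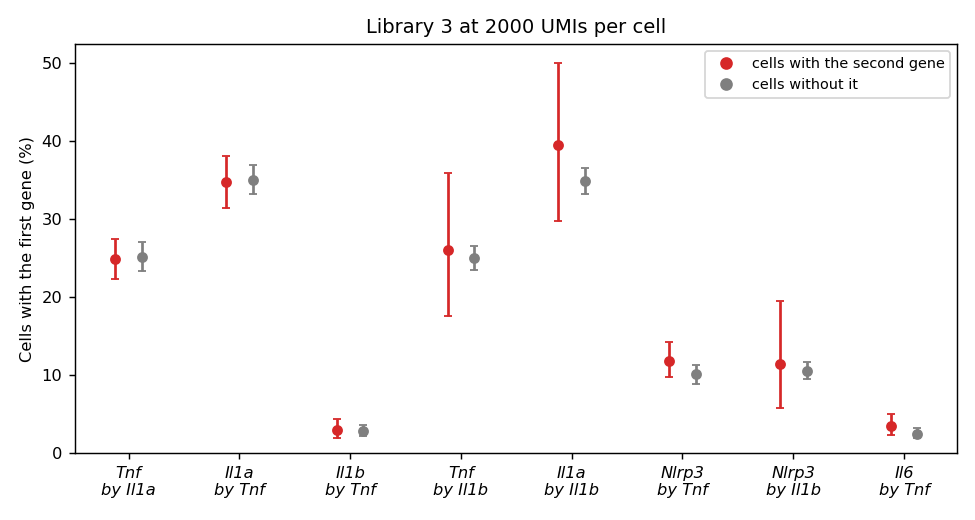
Percent of library 3 cells, thinned to 2000 UMIs, that held the first named gene, among cells with the second named gene (red) and among cells without it (grey), with exact 95% intervals. In each pair the 2 points overlap in their intervals, as for Tnf at 24.9% and 25.2% by Il1a.

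The members were next followed across cells ranked by the sum of the 20 immediate early genes, none of which is a member, and split into 3 equal groups in each library, because these genes were high in the same library as Tnf, Il1a and Il1b. In library 3, Tnf was found in 20.8% of the group of cells with fewest such UMIs (18.5 to 23.4), in 29.9% of the middle group (27.2 to 32.7) and in 24.4% of the group with most (21.9 to 27.1). Its UMIs in the group with most were 1.31 times those in the group with fewest (1.11 to 1.55), and the middle group was the highest of the 3. Il1a was found in 33.1%, 34.9% and 37.1% of these groups, a ratio of UMIs of 1.24 (1.09 to 1.41). Il1b was found in 2.93% (2.01 to 4.10), 4.01% (2.93 to 5.35) and 1.83% (1.12 to 2.81), a ratio of most to fewest of 0.625 (0.339 to 1.13), and its middle group lay above the group with most, but at 4000 UMIs per cell the groups with fewest and most both stood at 5.88%, the intervals of all 3 groups overlapped, and the ratio was 1.02 (0.706 to 1.46). Nlrp3 (9.23%, 11.6% and 10.9%) and Il6 (2.10%, 2.83% and 3.38%) did not differ beyond their intervals. In library 2, Tnf was in 4.96%, 7.72% and 7.57% of the groups, a ratio of 1.53 (1.10 to 2.16) that came to 1.04 (0.825 to 1.31) when cells were thinned to 4000 UMIs. For Tnf, the differences between groups of cells were smaller than that between libraries 3 and 2, and even the group of library 3 with fewest immediate early UMIs had Tnf in 20.8% of cells, against 6.75% in library 2 as a whole. Cells of library 3 with fewest such UMIs still held more of them than nearly all cells of library 2, whose 95th percentile was 12, against a 5th percentile of 29 in library 3. The libraries hardly overlapped in these sums, and the part of the immediate early state in the level of Tnf, Il1a and Il1b was not tested.

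**Figure D4:**
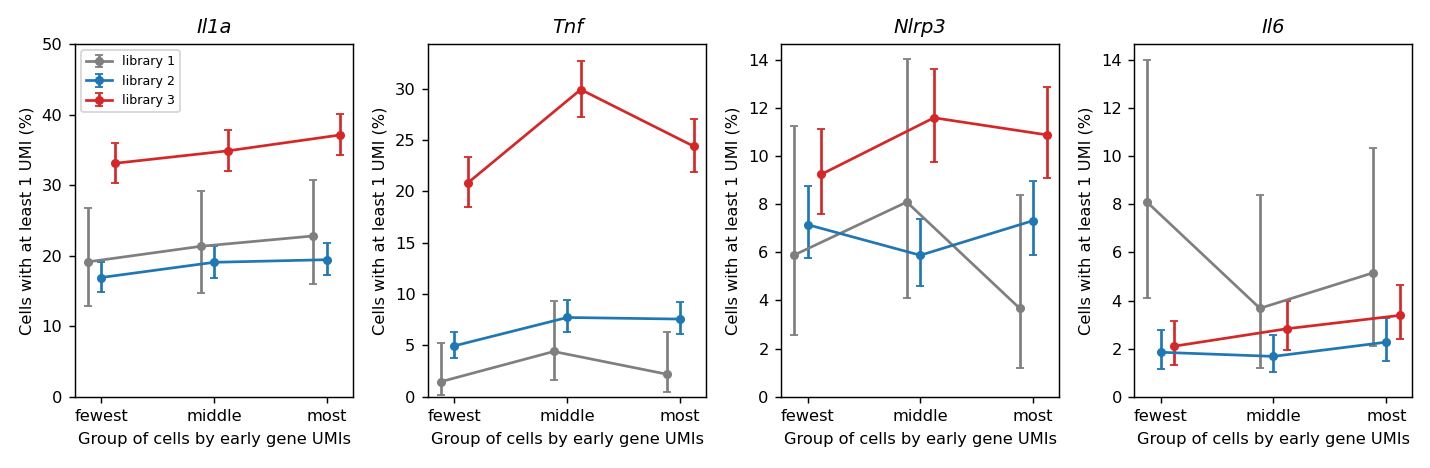
Percent of cells with at least 1 UMI of Il1a, Tnf, Nlrp3 and Il6 in 3 equal groups of each library's cells with fewest, middle and most immediate early UMIs, at 2000 UMIs per cell, with exact 95% intervals, for library 1 (grey), library 2 (blue) and library 3 (red). Tnf in library 3 goes from 20.8% through 29.9% to 24.4%, above all groups of libraries 1 and 2.

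Proliferation was high in library 2, and there the members were compared between 3 equal groups of cells ranked by the 15 proliferation genes. The groups with fewest, middle and most had medians of 0, 1 and 3 such UMIs. They thus lay few UMIs apart, and cells with equal sums were split between the fewest and middle groups. Il1b was found in 1.26% of the cells with fewest such UMIs (0.708 to 2.07) and in 0.252% of those with most (0.0521 to 0.736), a ratio of UMIs of 0.267 (0.0644 to 0.837) that rests on few cells. At 4000 UMIs per cell Il1b was in 22 against 15 cells, a ratio of 0.64 (0.319 to 1.25), and the difference no longer passed its interval. Tnf was found in 6.22% and 7.65% (ratio 1.22, 0.893 to 1.66), Il1a in 19.1% and 19.0% (0.99, 0.826 to 1.18), Nlrp3 in 6.56% and 6.73% (0.99, 0.718 to 1.36), Il18 in 8.07% and 7.40% (0.97, 0.723 to 1.30) and Il6 in 1.77% and 1.93% (1.10, 0.580 to 2.08). These other 5 genes did not differ beyond their intervals between the groups of library 2 with most and fewest proliferation UMIs. With groups so close in these UMIs, a difference between dividing and resting cells could be missed. In library 3 the 901 cells with any such UMI were set against the 2383 cells with none. Tnf had a ratio of 1.20 (1.05 to 1.37), which came to 1.07 (0.976 to 1.17) at 4000 UMIs per cell. The ratio of Il18 was 0.779 (0.576 to 1.04), and 0.799 (0.661 to 0.965) at 4000 UMIs.

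Genes whose counts went with a member from cell to cell were weak matches. Over the 3284 cells of library 3 the highest Pearson r for Tnf was with Ccl3, a chemokine gene (0.0736), and for Il1a with Pfdn6 (0.0709), and over the 3569 cells of library 2 they were Ccl4 for Tnf (0.0819) and Ubqln1 for Il1a (0.0601). In the 408 cells of library 1, values of at least 0.2 were reached by Cog4 (0.22) and Ccl4 (0.211) with Il1a, by 3222401L13Rik (0.205) with Il6, by Taf1d, Fbrs and Ndufb11 (each 0.204) with Il18, and by Paqr7 (0.209) and Rnf168 (0.204) with Nlrp3. At 4000 UMIs per cell, Ccl3 was again first for Tnf in library 3 (0.127), while the first for Il1a was Ccl2 (0.0854). In library 2 the first were then Erlec1 for Tnf (0.071) and Fam89a for Il1a (0.0693). The best of 5381 genes was taken over only 408 cells in library 1, and r scatters more over fewer cells. Its values cannot be set against those of the larger libraries. Counts this sparse hold much sampling noise, and none of these correlations was tested.

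The receptors and processing partners of the cytokines were mostly within 2-fold between libraries, as were most genes. Of all 8130 genes, 4.55% were higher and 3.7% lower past 2-fold in library 2 against library 1. These shares were 3.62% and 5.01% in library 3 against library 1, and 1.32% and 1.92% in library 3 against library 2. A count of 0 among so few genes is close to these shares, for each list of partners below. Of the IL-1 receptor and signalling genes, 8 were found and 3 passed 10 CPM, and of these 3 genes 0 were past 2-fold in any comparison, with a median log2 ratio of 0.16 between libraries 3 and 2. Their ligand-binding members were near the limit, with Il1r1, the signalling receptor, at 2, 14 and 11 UMIs and Il1r2, a decoy receptor, at 0, 3 and 0. Per UMI sequenced Il1r1 was at 1.49 CPM in library 1 and 0.581 in library 2, a ratio of library 2 to library 1 of 0.390 (0.0896 to 3.54). Il1rn, the gene of the IL-1 receptor antagonist, had 1, 50 and 3 UMIs in libraries 1, 2 and 3, the 50 of library 2 in 37 cells. Per UMI sequenced it was 13.7-fold higher in library 2 than in library 3 (4.42 to 68.5), while Il1a and Il1b were higher in library 3. Irak3, an inhibitory member of the IRAK family, was also below 10 CPM, with 0, 89 and 64 UMIs. Myd88, the adaptor shared by IL-1 and Toll-like receptors, was at 48.4, 48.1 and 53.8 CPM.

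Of the 13 inflammasome and processing genes, 8 passed 10 CPM, and of these 8 genes 0 were past 2-fold in any comparison, with medians of -0.55, -0.47 and -0.03 in library 2 against 1, 3 against 1 and 3 against 2. Pycard, the gene of the adaptor ASC, was at 583, 890 and 668 CPM in libraries 1, 2 and 3. Casp1, which encodes caspase-1, was at 70.0, 44.1 and 50.4 CPM, and P2rx7, an ATP-gated channel that can trigger NLRP3, at 119, 85.8 and 79.4 CPM. Txnip, a thioredoxin-binding protein linked to NLRP3, was lowest in library 2, at 289, 145 and 272 CPM. Among the genes below 10 CPM, Nlrp1a was past 2-fold lower (10.4, 3.69 and 3.69 CPM) and Panx1, a channel subunit that can release ATP, past 2-fold higher (2.98, 10.3 and 10.2 CPM) in libraries 2 and 3 than in library 1. The sensor, adaptor and protease genes were thus all detected in libraries where Il1b was at 2.23 to 18.7 CPM.

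Of the 7 genes for TNF shedding and reception, all passed 10 CPM and 0 were past 2-fold. Adam17, the protease that releases TNF from the membrane, was at 99.0, 61.9 and 66.6 CPM, the receptor gene Tnfrsf1a at 171, 151 and 177 and Tnfrsf1b at 114, 70.8 and 79.3. These differ far less than Tnf did. Among the 9 genes of IL-6, IL-10 and IL-18 reception, 6 passed 10 CPM. Il6ra was at 312, 186 and 225 CPM, Il10ra at 286, 151 and 176 and Il10rb at 334, 210 and 223, all highest in library 1. So were Il6 and partners of other lists such as Casp1, Adam17 and Tnfrsf1b, though not Pycard or Tnfrsf1a. Il6st, the gp130 gene, was at 159, 90.8 and 72.6 CPM and was past 2-fold lower in library 3 than in library 1. Socs3, a STAT3 target that restrains IL-6 signalling, was higher past 2-fold in all 3 comparisons, at 42.4, 96.0 and 544 CPM. Il18bp, the gene of the binding protein that neutralizes IL-18, had 4, 41 and 37 UMIs.

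For BDNF, 4 of 6 genes of its processing and reception passed 10 CPM and 0 were past 2-fold. P2rx4, an ATP-gated channel studied upstream of microglial BDNF, was at 151, 112 and 126 CPM, and Furin, a protease that can cleave the BDNF precursor, at 40.2, 25.5 and 25.8. Ntrk2, the TrkB gene, had 0, 3 and 0 UMIs. The channel and the protease were thus well detected in cells in which Bdnf was at 0 UMIs.

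**Figure D5:**
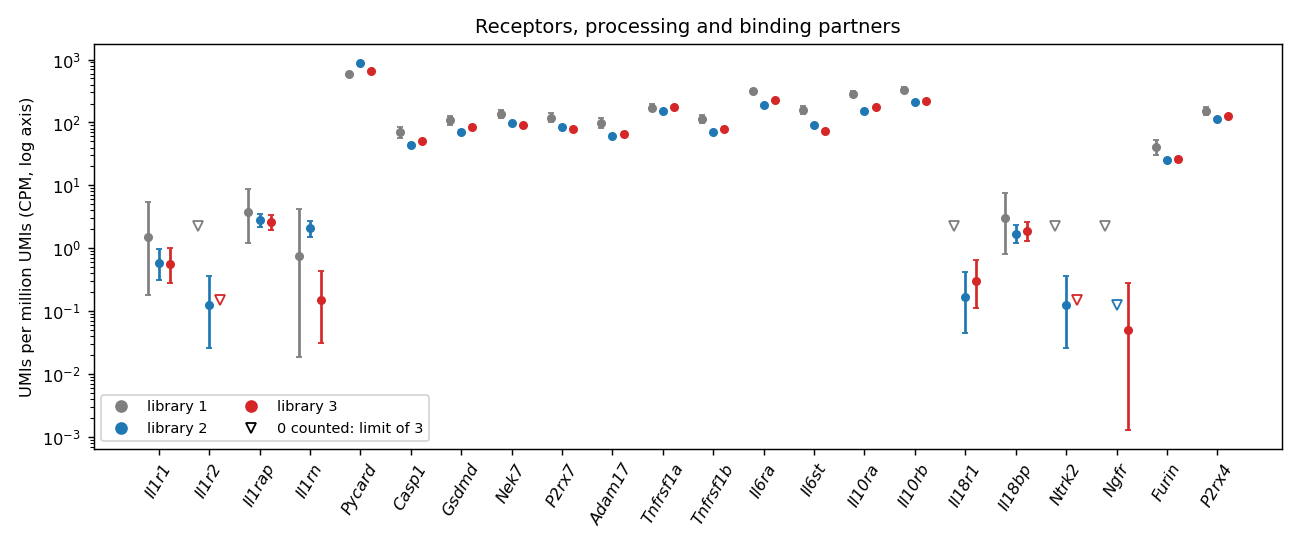
Level in CPM, on a log axis, of 22 receptor, processing and binding partner genes in library 1 (grey), library 2 (blue) and library 3 (red), with exact 95% Poisson intervals, and open triangles at the limit of 3 counts where 0 were found. The receptors Il1r1, Il1r2, Il18r1, Ntrk2 and Ngfr lie near the limit, while the other receptors shown and Pycard are between 70.8 and 890 CPM except Il1rap.

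Genes of the NF-κB pathway, which can induce Tnf in macrophages, were in part highest in the same library as Tnf. A link between them and Tnf was not tested. Of 9 NF-κB subunit and inhibitor genes, 4 (Nfkbia, Nfkbiz, Relb and Tnfaip3) were higher past 2-fold in library 3 than in library 2. None was lower, beside 1.32% higher and 1.92% lower of all 8130 genes, and the median log2 ratio of the 9 was 0.99. Against library 1, 3 of the 9 (Nfkbia, Nfkbiz and Relb) were higher past 2-fold in library 3, beside 3.62% of all genes. The same shares are the background of the counts that follow. Nfkbia, the inhibitor IκBα, was at 206, 191 and 517 CPM, and Nfkbiz at 21.6, 19.8 and 194. Tnfaip3, the gene of A20, which restrains NF-κB, was at 23.8, 7.18 and 28.8 CPM, lowest in library 2. Of 27 other cytokine and growth factor genes, 12 passed 10 CPM, and 4 of these were higher past 2-fold in library 3 than in library 2 (Ccl2, Ccl3, Ccl4 and Osm) and 1 was lower (Tnfsf8). The chemokine genes Ccl3, at 90.1, 55.7 and 856 CPM, and Ccl4, at 136, 94.2 and 785 CPM, were highest in library 3 with Tnf. Tgfb1, at 554, 534 and 457 CPM, was not. All 18 of the immediate early genes that passed 10 CPM were higher past 2-fold in library 3 than in either other library. Of 6 heat shock genes 3 were higher than in library 2 and 6 than in library 1. With 1 library per group, a difference in preparation cannot be told apart from one between the animals.

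Cells of other types could add cytokine UMIs, so their marker genes were read in the cells that held a member. In library 3, a UMI of any of 7 monocyte genes was found in 0.851% of the 823 cells with Tnf (0.343 to 1.74), against 0.579% of all its cells, and of any of 6 neutrophil genes in 0.972% (0.421 to 1.91), against 0.914%. Perivascular macrophage genes were in 0 of the cells with Tnf, which allows up to 3 of 823. For Il1b the shares were 2 of 96 cells for monocyte genes and 2 of 96 for neutrophil genes, 2.08% each (0.253 to 7.32). For Il6, neutrophil genes were in 4 of 91 cells (4.40%, 1.21 to 10.9), an interval that lies above the 0.914% of all cells, and monocyte genes in 1 of 91. At 4000 UMIs per cell neutrophil genes were in 5 of 134 cells with Il6 (3.73%, 1.22 to 8.49). That interval holds the 1.55% of all cells at this depth, so the difference no longer passed it. For Il1a, Il18 and Nlrp3 both lists were in 0 to 8 cells, at most 0.865%. In library 2, T and NK cell genes were in 2.73% of the 659 cells with Il1a (1.63 to 4.28), against 1.79% of all its cells. At 4000 UMIs per cell these shares were 3.76% (2.70 to 5.08) and 3.85%. In sum over the library the 7 monocyte genes came to 8.93, 3.32 and 3.34 CPM in libraries 1, 2 and 3 and the 6 neutrophil genes to 0, 4.15 and 5.41. Perivascular macrophage genes came to 0.745, 2.28 and 1.52 CPM, T and NK cell genes to 0.745, 12.7 and 0.253, neuronal genes to 1.49, 1.49 and 0.86, astrocyte genes to 2.98, 4.19 and 2.83 and oligodendrocyte genes to 78.9, 64.2 and 73.2. The neutrophil sum was 0 UMIs in library 1, where a count of 0 allows up to 2.23 CPM, and was higher in libraries 2 and 3. Tnf was also higher in both of these than in library 1, while Il1b was higher beyond its interval only in library 3. The part of neutrophil transcripts in these levels was not tested beyond the shares given here.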

How the data were processed

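YFP (+) lumbar cord cells of 3 groups were profiled by droplet sequencing. The authors deposited UMI counts per gene and cell, without normalization, as 1 table that joins the 3 libraries, and the submitters' processing notes name Cell Ranger 2.1.1 and mm10. Nothing in the sources used here gives the strand setting or the rule that called cells. From these counts, CPM were summed per library, and cells were thinned to 2000 UMIs without replacement (seed 1), leaving out 201, 22 and 38 shallower cells. Doublets were kept and not called here: the doublet gate of the sort acts before loading and does not remove droplets that took up more than 1 cell. Shares have Clopper-Pearson intervals, levels Poisson intervals and ratios exact conditional binomial intervals, all at 95% and for counting error only. A count of 0 was given a limit of 3 counts. With 1 library per group no p-value was computed. The ratio step was tested on simulated counts, and the search for matching genes on library 3 with simulated counts put in for Tnf and Actb. Thinning was checked to leave 2000 UMIs in every kept cell. The other steps were not tested on simulated data. Promoters are those of RefSeq on GRCm38.p6, matched by symbol, and positions are those of GENCODE M21, matched by Ensembl identifier (8 of 8), since mm10 and GRCm38 are the same build. The members and gene lists were chosen with earlier results of these data known. Named genes are the members, the highest and most different genes of each list, defining pathway genes, and the best matches of each member by Pearson r on log2 of thinned counts plus 1. Python 3.11.15, numpy 2.4.6, scipy 1.17.1, pandas 2.3.3 and matplotlib 3.10.9 were used. Some items are not reported here.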

Additional observations from a re-analysis of the deposited data

How the results depend on the processing

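Shares of cells moved with depth by construction: without thinning 12 of 24 shares moved beyond their interval, at 1000 UMIs 16, at 4000 UMIs 19 (with 9 cells left in library 1) and with at least 2 UMIs per cell 19, while another random draw moved 2 and a cell filter (at least 200 genes, 500 UMIs and at most 10% mitochondrial UMIs) 0. CPM moved for Il1a and Tnf of library 3 with median-of-ratios size factors, to 234 and 169, and for Tnf with a mean over single cells, to 154. These size factors raised the median log2 ratio of all genes against library 1 from -0.09 to 0.05 and 0.06, and among the members' log2 ratios this scaling turned the sign of 1, that of Il1a in library 2 against library 1, from -0.11 to 0.04. The count of members higher past 2-fold in library 2 against library 1 was 1 and became 2 (Il1b and Tnf) with a pseudocount of 0.1 CPM. Il1a left the count for library 3 against library 1 when cells under 2000 UMIs were left out, at a log2 ratio of 0.98. At 4000 UMIs the ratio of Tnf UMIs between library 2 cells with most and fewest immediate early UMIs went from 1.53 (1.10 to 2.16) to 1.04 (0.825 to 1.31). Of 15 Fano factors 10 moved at 4000 UMIs. The shares of cells with one of Il1a, Il1b and Tnf among cells with another, in libraries 2 and 3, also moved with depth. At 4000 UMIs 9 moved and 3 did not, and without thinning 11 moved and 1 did not. Leaving out the 51 cells with a barcode sequence shared between libraries, an alternative chosen after seeing the data, moved no CPM beyond its interval. No paired analysis was possible because each group has 1 library, and no replicate could be left out. Library 1, with 408 thinned cells, limits every comparison with it, and the level of free RNA was not measured.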
